A study of Homo sapiens with 20 samples.

Results

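The mitochondrial ribosomal protein genes examined here were the protein-coding genes whose GENCODE symbol is MRPL or MRPS followed by a number. GENCODE holds 78 such symbols, and the counts of MM1.S cells covered 19617 genes in all. Each gene was represented by the transcript with the most reads over all libraries, and 73 of the 78 had at least 500 reads over the 9 DMSO libraries. These 73 genes, 47 of the large subunit (MRPL) and 26 of the small subunit (MRPS), all passed the filter on low counts, and all were tested for both kinds of read. MRPL23, with 131 reads, MRPL45 with 6, MRPS18B with 0, MRPS31 with 205 and MRPS36 with 10 fell short of the minimum and were left out. MRPS18A and MRPS30 carry the letter of the small subunit but lie in the large subunit of the assembled ribosome. They were counted by their letter.

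The mitochondrial ribosome sits inside the organelle and makes the few proteins of the respiratory chain and ATP synthase that mitochondrial DNA still encodes. Its ribosomal RNAs come from mitochondrial DNA, but every one of its proteins is encoded in the nucleus, translated in the cytosol and imported. Many of these proteins descend from bacterial ribosomal proteins, and others are found only in mitochondria. Their promoters are known for sites of NRF1, the ETS factor GABP and YY1, and MYC is known to act on many genes of mitochondrial proteins.

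MM1.S is a human multiple myeloma cell line, of genotype WT by the labels, and it was the single line used. Cells received dCBP-30 at 10 nM, a bifunctional degrader of the coactivator acetyltransferases CBP and p300, or the vehicle DMSO, for 2, 6 or 24 h, with 3 replicate samples in each of the 6 groups. 4-thiouridine (4sU) was added in the last hour, so that a read with T>C conversions (a T>C read) marks RNA made in that hour, whereas total reads also count older RNA. The 2 further libraries had no 4sU, and their labels name no treatment or time. The labels say that samples were in triplicate but not whether these were separate cultures, so p-values measure the spread between samples, which may be technical. In bulk RNA, fewer cells and less RNA per cell cannot be told apart.

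Libraries held between 12440700 and 18729086 reads on genes, of which 4.71% to 8.62% were T>C reads in the labelled libraries and 0.794% and 0.809% without 4sU. At 24 h a T>C read carried 1.43 to 1.51 conversions under dCBP-30 and 2.46 to 2.51 under DMSO, against 2.12 to 2.27 in all other labelled libraries. The part of this difference in the 24 h results was not tested. For the 73 genes a library held a median of 64 T>C reads and 1077.5 reads per gene. RPM are reads per 1000000 reads of a library after TMM scaling, and T>C reads were set against total reads as well, so that a shift of new RNA shared by most genes stays visible. Plasma cell markers were high in every DMSO library (SDC1 at 1140 to 1780 and XBP1 at 1070 to 1510 RPM), while the T cell gene CD3D and the myeloid gene LYZ had 0 reads there and the T cell gene CD3E lay at 2.08 to 7.19 RPM.

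Promoters were read from RefSeq (GRCh38.p14) as 250 bases before to 50 after the gene start, which gave 66 of the 73 genes. MRPL2, MRPL10, MRPL13, MRPL15, MRPL21, MRPL35 and MRPS28 had no entry. Letters of 4 motifs were sought on both strands, none of which contains another. CCGGAAG, of GABP and other ETS factors, was in 28 of the 66 promoters (42.4%), against 10.7% of all 27305 promoters and 14.2% of those of coding genes. AAGATGGCG, of YY1, was in 12 (18.2%, against 1.85% of all and 2.74% of coding genes). GCATGCGC, of NRF1, was in 5 (7.58%, against 3.27% of all and 4.26% of coding genes). The MYC E-box CACGTG, which reads the same on both strands, was in 5 (7.58%, against 7.43% of all and 8.88% of coding genes). In total 39 promoters held at least one of these letter runs and 27 held none. A match is a description of letters and not of binding. The following 4 promoters are shown because they span the changes described next, from the strongest decrease (MRPL12) through 2 early decreases (MRPL36 and MRPS34) to a gene that passed no test with TMM scaling (MRPS10, called higher in total reads without TMM factors), with matched letters in capitals, 5′ to 3′ on the strand of the gene.
MRPL12 (chr17:81703117-81703416, plus strand): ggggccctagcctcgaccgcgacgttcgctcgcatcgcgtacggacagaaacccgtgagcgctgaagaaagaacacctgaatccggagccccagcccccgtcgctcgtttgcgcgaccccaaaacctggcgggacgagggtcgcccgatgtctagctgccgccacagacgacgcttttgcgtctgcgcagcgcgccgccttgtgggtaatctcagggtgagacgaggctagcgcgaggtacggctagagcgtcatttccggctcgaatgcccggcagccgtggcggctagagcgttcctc
MRPL36 (chr5:1799788-1800087, minus strand): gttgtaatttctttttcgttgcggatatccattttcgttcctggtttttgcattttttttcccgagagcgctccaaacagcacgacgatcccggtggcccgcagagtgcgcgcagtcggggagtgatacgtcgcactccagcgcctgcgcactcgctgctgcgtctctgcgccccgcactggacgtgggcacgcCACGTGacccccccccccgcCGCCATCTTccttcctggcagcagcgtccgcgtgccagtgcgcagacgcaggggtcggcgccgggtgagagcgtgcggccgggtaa
MRPS34 (chr16:1773085-1773384, minus strand): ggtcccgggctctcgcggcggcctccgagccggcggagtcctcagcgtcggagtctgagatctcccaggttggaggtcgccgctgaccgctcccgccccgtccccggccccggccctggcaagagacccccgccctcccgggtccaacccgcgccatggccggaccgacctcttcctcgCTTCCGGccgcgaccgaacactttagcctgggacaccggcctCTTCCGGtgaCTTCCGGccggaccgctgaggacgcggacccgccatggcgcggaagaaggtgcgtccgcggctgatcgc
MRPS10 (chr6:42217812-42218111, minus strand): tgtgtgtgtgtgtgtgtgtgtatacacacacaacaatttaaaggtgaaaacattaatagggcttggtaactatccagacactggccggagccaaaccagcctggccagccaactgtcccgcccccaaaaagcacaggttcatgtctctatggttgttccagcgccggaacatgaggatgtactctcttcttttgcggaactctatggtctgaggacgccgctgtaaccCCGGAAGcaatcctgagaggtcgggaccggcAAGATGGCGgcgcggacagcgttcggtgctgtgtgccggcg
MRPL12 held none of the 4 runs. MRPL36 held the E-box 56 bases before the start and the YY1 letters on the opposite strand 36 bases before it. MRPS34 held the GABP letters 3 times on the opposite strand, at 71, 29 and 19 bases before the start. MRPS10 held the GABP letters 22 bases before the start and the YY1 letters 9 bases after it.

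The first comparison asked how new and total RNA of the whole gene group moved under dCBP-30. Summed over the 73 genes, T>C reads at 2 h were 499, 415 and 498 RPM under dCBP-30 and 495, 451 and 446 RPM under DMSO, so the libraries overlapped. At 6 h the sums were 306, 275 and 277 RPM under dCBP-30 and 509, 460 and 508 RPM under DMSO, with no overlap. At 24 h they were 229, 239 and 265 RPM against 572, 629 and 618, again apart, with means of 244 ± 18.6 and 606 ± 30.2 RPM (SD, n = 3). The means had a ratio, dCBP-30 over DMSO, of 1.02, 0.581 and 0.403 in order of time. Total reads fell less at 6 and 24 h. Their means were 8190 ± 552 and 8550 ± 246 RPM at 2 h, 6570 ± 558 and 8500 ± 114 RPM at 6 h, and 4490 ± 129 and 8220 ± 382 RPM at 24 h, with ratios of 0.958, 0.773 and 0.546. T>C reads made up 5.44% ± 0.275 of the summed reads under dCBP-30 and 7.38% ± 0.0586 under DMSO at 24 h, when the T>C reads of these genes carried 1.37 ± 0.0208 and 2.20 ± 0.0462 conversions each.

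**Figure D1:**
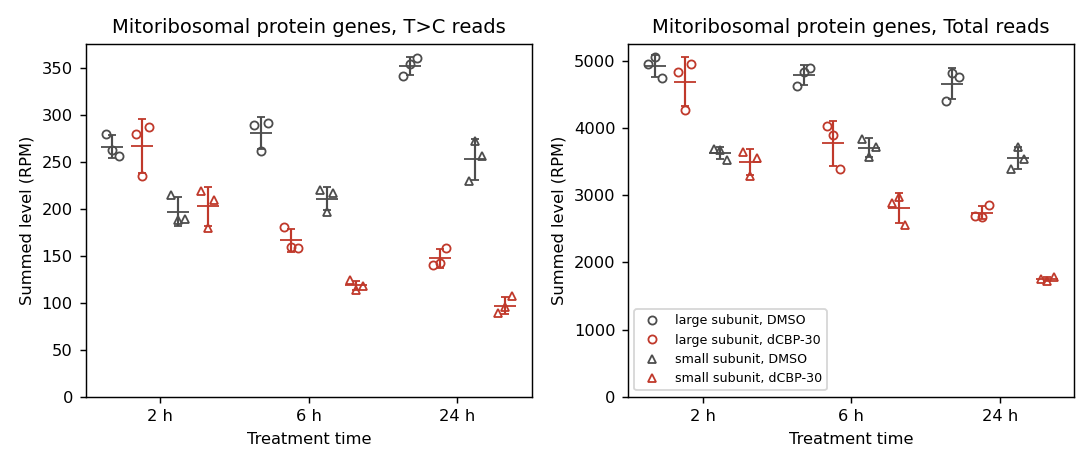
Summed T>C level (left) and total level (right) of the large and small subunit genes in each library, in RPM on linear axes from 0, by treatment time. Open symbols are single libraries and bars the mean and SD of 3. The dCBP-30 libraries overlap those of DMSO at 2 h and lie below them at 6 and 24 h for both subunits and both kinds of read.

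At 2 h the genes showed little change. In T>C reads 2 of the 73 fell, MRPS24 and MRPL34 (8.33% of all 10115 genes tested fell), and 1 rose, MRPS26 (2.35% of all genes rose). The median log2 fold change was 0.14, and that of all genes 0.04. In total reads none fell and none rose by edgeR, where 2.69% of all genes fell and 1.54% rose. At an unadjusted p under 0.05, 4 were lower and 1 was higher, and DESeq2 called 1 lower. MRPL34, a homologue of a bacterial large subunit protein, had 18.5, 19.9 and 18.6 T>C RPM under dCBP-30 and 28.6, 30 and 31.2 under DMSO at 2 h, and fell by 0.66 on the log2 scale (SE 0.183, adjusted p = 0.0098, edgeR). Its groups lay apart, and its total level did not pass the test (0.07 on the log2 scale). MRPS24, the homologue of bacterial uS3, had 10.4, 11.3 and 11 T>C RPM under dCBP-30 and 20.8, 17.8 and 15.7 under DMSO (fell by 0.73, SE 0.237, adjusted p = 0.033). Its counted region is shared base for base with the read-through gene URGCP-MRPS24, so that the reads of the pair cannot be told apart. The call of MRPS24 at 2 h was lost without any single one of the dCBP-30 libraries (-0.76 to -0.70) and without DMSO replicate 1 (-0.62) or 2 (-0.74).

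At 6 h new RNA fell in a part of the group. T>C reads of 23 of the 73 genes fell, 15 of the large and 8 of the small subunit, and none rose (21.2% of all genes tested fell and 3.07% rose). At an unadjusted p under 0.05 edgeR had 1 gene higher, and DESeq2 called none higher. By more than 2-fold 19 fell (17.0% of all). The median log2 fold change was -0.57 over the 73 genes and -0.27 over all genes. In total reads 27 fell and none rose by edgeR, where 21.4% of all genes fell and 18.8% rose. Of these 27, MRPL36 and MRPL14 fell by more than 2-fold (8.64% of all genes did). At an unadjusted p under 0.05, 4 genes were higher in total reads, and DESeq2 called 3 higher. The median of total reads was -0.35 in the group and 0.03 over all genes. Both kinds of read fell for 14 genes (19.2%, against 17.0% of the 10115 genes tested in both), T>C reads alone for 9 (12.3% against 4.18%) and total reads alone for 13 (17.8% against 7.83%). Without TMM factors these counts were 6, 6 and 2 (10.1%, 4.31% and 3.61% of all genes). Without the library of dCBP-30 6 h replicate 2, T>C reads of 14 genes fell, and without that of dCBP-30 6 h replicate 3, total reads of 17 fell. Both counts are given without the share of all genes in the same fits, so they do not show a trait of this group.

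At 24 h the decrease covered most of the group. T>C reads of 48 of the 73 genes fell, 30 of the large and 18 of the small subunit, and none rose by edgeR, also at an unadjusted p under 0.05, or by DESeq2 (36.9% of all genes fell and 2.88% rose). By more than 2-fold 40 fell (31.0% of all genes). The median was -1.23 against -0.68 over all genes. In total reads 58 fell, 39 large and 19 small, and 2 rose, MRPL43 and MRPL53 (29.7% of all genes fell and 28.8% rose), and 22 fell by more than 2-fold (16.0% of all). The median of total reads was -0.79 in the group and 0.06 over all genes.

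Total reads as scaling base carried large TMM factors under dCBP-30, from 1.29 to 1.32 at 24 h and 1.12 to 1.14 at 6 h, against 0.873 to 0.934 under DMSO, and the counts moved with the scaling. With T>C reads scaled by their own total, 12 genes fell and 1 rose at 6 h and 20 fell and 1 rose at 24 h. The 12 are 16.4% of the group beside 14.6% of all genes, so that the count at 6 h lies near the background, and the 20 are 27.4% beside 18.6%. Of all genes 6.80% rose at 6 h and 10.4% at 24 h. These 12 and 20 were all among the genes called in the first scaling, and MRPL43 at 6 h and MRPL44 at 24 h were the genes that rose. Without TMM factors, T>C reads of 12 genes fell at 6 h (16.4%, near the 14.4% of all genes) and of 22 at 24 h (30.1% against 21.6%), and 1 rose at each time (6.60% and 7.80% of all genes). Total reads without TMM factors fell for 8 and rose for 15 genes at 6 h, where the share of the 8 lies near the 11.9% of all genes that fell and that of the 15 (20.5%) below the 36.1% that rose. At 24 h they fell for 28 (38.4% against 17.0% of all genes) and rose for 9 (12.3% against 49.5%). The median of all genes moved with them, for T>C reads at 24 h from -0.68 to -0.02 (own total) or -0.16 (no TMM), and for total reads from 0.06 to 0.58. The median of the 73 genes stayed below 0 at 6 and 24 h under each scaling for both kinds of read. Set against the median of all genes it was -0.55, -0.54 and -0.55 for T>C reads at 24 h under the 3 scalings, and -0.84 for total reads with and without TMM factors. Of the 58 genes called lower in total reads at 24 h, 6 (MRPL30, MRPL38, MRPL40, MRPL49, MRPL54 and MRPS5) had an estimate above 0 without TMM factors.

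**Figure D2:**
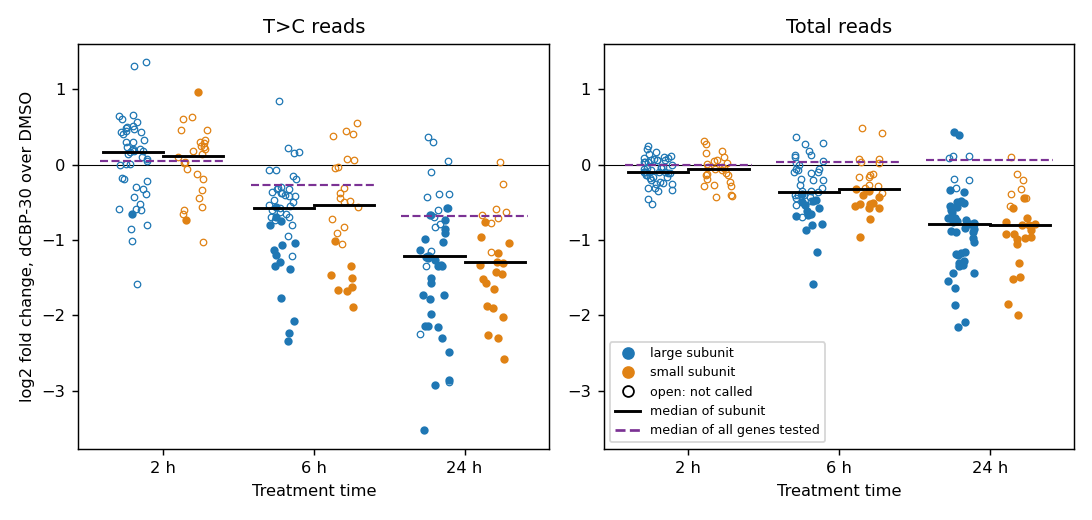
log2 fold change, dCBP-30 over DMSO, of each of the 73 genes in T>C reads (left) and total reads (right) at 2, 6 and 24 h, by subunit. Filled points passed the test, open points did not, black bars are subunit medians and dashed lines the median of all genes tested. The subunits lie side by side, below the dashed line at 6 and 24 h. At 24 h the T>C medians are -1.22 (large) and -1.30 (small) against -0.68 for all genes with TMM scaling, and all 3 medians are nearer 0 under the other scalings.

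The next comparison set the large against the small subunit. In T>C reads the median log2 fold change of the large subunit was 0.16, -0.58 and -1.22 at the 3 times, beside 0.12, -0.53 and -1.30 for the small subunit. At 6 h 31.9% of the large and 30.8% of the small subunit genes were called lower, and 63.8% and 69.2% after 24 h. Total reads had medians of -0.36 and -0.32 at 6 h and -0.78 and -0.80 at 24 h. For the sums of the genes, dCBP-30 over DMSO was 0.419 for the large and 0.384 for the small subunit in T>C reads at 24 h, and 0.588 and 0.493 in total reads. The difference between subunits was not tested, since the genes share their libraries and are not replicates. With MRPS18A and MRPS30 moved to the large subunit, the T>C medians at 24 h were -1.22 and -1.31. Within either subunit the spread over genes was wider than the gap between the subunits, with quartiles at 24 h of -1.76 and -0.69 in the large and -1.64 and -0.77 in the small subunit.

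Among proteins of the stalk, which binds the translation factors, MRPL12 had the most negative estimate of the 73 genes at 24 h in both kinds of read. MRPL12 (ENSG00000262814.8, the L7/L12 homologue, also known to bind the mitochondrial RNA polymerase) was counted in its 3′ UTR at chr17:81707238-81707517 (hg38, plus strand). It had 3.71, 3.96 and 2.31 T>C RPM under dCBP-30 and 4.63, 4.65 and 3.74 under DMSO at 2 h. At 6 h it had 0.897, 1.11 and 2.02 against 7.07, 5.29 and 6.64, and at 24 h 0.329, 1.48 and 0 against 6.61, 4.41 and 10.1. Its dCBP-30 libraries lay below those of DMSO at 6 and 24 h, with 0 T>C reads in 1 library at 24 h, and it fell by 2.24 (SE 0.488, adjusted p = 0.00028) and 3.52 on the log2 scale (SE 0.528, adjusted p = 1.9e-07). In total reads MRPL12 was at 38.5, 31.9 and 33.8 RPM against 154, 146 and 165 at 24 h (fell by 2.16, SE 0.155, adjusted p = 1.2e-11). MRPL10, the stalk base protein to which MRPL12 binds, fell in T>C reads at 24 h from 8.97 ± 1.49 to 4.41 ± 0.969 RPM (n = 3), while its total level did not pass the test (log2 fold change 0.09). MRPL10 lost that T>C call under both other scalings, and its total reads passed as higher without TMM factors at 6 h (0.60) and 24 h (0.61). MRPL11, at the base of the stalk, fell in total reads from 113 ± 10.6 to 49.2 ± 1.67 RPM at 24 h. Its T>C call (fell by 1.26, adjusted p = 0.03) was lost under both other scalings, without dCBP-30 24 h replicate 1 (-1.20) or 2 (-0.81), and without DMSO 24 h replicate 1 (-1.22) or 2 (-1.21). The T>C share of MRPL11 under DMSO, 2.74%, was less than 3 times the 1.05% without 4sU.

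Of the core of the large subunit, MRPL3 (uL3m, near the peptidyl transferase centre) and MRPL35 changed late in T>C reads. MRPL3 had 1.85, 3.66 and 1.84 T>C RPM against 4.31, 3.15 and 2.78 at 6 h, where the groups overlapped. At 24 h it had 0.986, 1.21 and 0.59 against 6.22, 6.62 and 8.41 (fell by 2.92, SE 0.409, adjusted p = 2.5e-08). Total reads of MRPL3 were called lower already at 6 h (-0.53), a call lost without TMM factors (-0.22), and again at 24 h (-1.43). MRPL35 had 4.43, 3.82 and 3.8 against 6.08, 4.56 and 4.88 T>C RPM at 6 h and 0.383, 0.66 and 1.07 against 3.95, 6.56 and 4.93 at 24 h (fell by 2.85, SE 0.403, adjusted p = 3.1e-08), with its dCBP-30 libraries just below those of DMSO at 6 h, where it passed no test, and far below them at 24 h. Total reads of MRPL35 fell by 0.63, a call lost without TMM factors (-0.10). MRPL24, the uL24 homologue, fell in T>C reads from 5.51 ± 1.73 to 0.981 ± 0.0647 RPM and in total reads from 199 ± 12.6 to 54.8 ± 5.67 RPM at 24 h (log2 fold changes -2.48 and -1.86).

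MRPL36, a small zinc-binding protein of the large subunit, and MRPL14, which lies at the face towards the small subunit, changed early. MRPL36 had 1.26, 3.43 and 1.35 T>C RPM against 10.1, 9.45 and 11.3 at 6 h (fell by 2.34, SE 0.351, adjusted p = 2.1e-07) and 2.9, 1.65 and 2.42 against 13, 11 and 10.4 at 24 h. Its total level at 6 h was already 41.5, 37.2 and 20.3 RPM against 81.1, 105 and 111 (fell by 1.59, adjusted p = 3.8e-06). MRPL36 was low to a like degree at 6 and 24 h in both kinds of read. The deposited files list 6959 multimapping reads for MRPL36, whose counted 3′ UTR is chr5:1798390-1798626 (minus strand). MRPL14 had 1.67, 2.44 and 0.245 T>C RPM against 8.41, 5.29 and 4.95 at 6 h (fell by 2.08, SE 0.436, adjusted p = 0.00016), and its total level was 53.6 ± 10.5 against 120 ± 11.1 RPM (fell by 1.16). MRPL34, named above for 2 h, fell further in T>C reads by 1.76 at 6 h and 2.15 at 24 h.

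Of the small subunit, MRPS2 (uS2m, a conserved protein, counted at chr9:135501282-135504673, plus strand) had 20.4, 12.9 and 14.8 T>C RPM against 14.4, 11.7 and 14.6 at 2 h. At 6 h it had 6.94, 5.59 and 2.63 against 17.2, 12.5 and 18.4, and at 24 h 3.07, 2.42 and 2.31 against 14.3, 17.8 and 14.5 (fell by 1.66 and 2.58, adjusted p = 7.4e-07 and 1.3e-11). Its groups overlapped at 2 h and lay far apart afterwards, and its total level at 24 h was 33.3, 33.2 and 32.8 RPM against 135, 128 and 132. MRPS12, of the decoding centre and the homologue of the streptomycin target of bacteria, fell in T>C reads from 21.5 ± 3.86 to 8.45 ± 2.12 RPM at 6 h and from 21.1 ± 3.05 to 5.64 ± 2.04 RPM at 24 h. In total reads it fell from 270 ± 8.87 to 74.7 ± 5.34 RPM (log2 fold change -1.85, adjusted p = 3.2e-14). Its T>C share under DMSO, 7.07%, was less than 3 times the 2.5% without 4sU. MRPS16, another conserved protein, known as a gene of mitochondrial disease, had 7.84, 8.2 and 9.87 T>C RPM against 14.3, 9.65 and 11.4 at 6 h, with overlap, and 5.26, 7.26 and 7.67 against 16.1, 21.0 and 20.9 at 24 h. It passed the test at 24 h (fell by 1.52, adjusted p = 2.9e-07).

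Several proteins found only in mitochondrial ribosomes fell by 6 h. MRPS34, a gene of Leigh syndrome, was counted at chr16:1771890-1772223 (minus strand). It had 24.7, 21.0 and 21.3 T>C RPM against 20.3, 29.6 and 22.9 at 2 h, 7.3, 10.6 and 11.6 against 26.2, 28.1 and 27.0 at 6 h, and 8.11, 8.36 and 9.18 against 36.7, 36.4 and 31.2 at 24 h. The groups overlapped at 2 h only, and it fell by 1.46 (adjusted p = 1.4e-08) and 2.02 (adjusted p = 8e-13). MRPS25 fell in T>C reads from 7.67 ± 1.08 to 2.06 ± 0.388 RPM at 6 h, with exons of NR2C2 on the opposite strand and of a further gene on its own strand over its counted region. MRPS27, a pentatricopeptide repeat protein, had 2.03, 1.22 and 2.51 T>C RPM against 5.79, 4.29 and 8.4 at 6 h and 1.75, 2.03 and 0.644 against 3.82, 5.6 and 6.96 at 24 h (fell by 1.68 and 1.88, adjusted p = 0.00058 and 9e-05). Its total level, 31.9, 49.7 and 60.3 RPM against 56.1, 63.2 and 58.3 at 24 h, overlapped between groups and did not pass the test.

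MRPS26 moved in both directions. It had 11.7, 9.96 and 10.8 T>C RPM under dCBP-30 against 5.71, 4.23 and 6.73 under DMSO at 2 h (rose by 0.96 on the log2 scale, SE 0.290, adjusted p = 0.019). At 6 h it had 1.85, 2.82 and 4.23 against 11.9, 7.97 and 7.59, and at 24 h 4.05, 4.73 and 5.37 against 12.3, 10.9 and 11.8. All dCBP-30 libraries were thus above those of DMSO at 2 h and all below them at 6 and 24 h (fell by 1.62 and 1.31, adjusted p = 1.6e-05 and 0.00017). The rise of MRPS26 at 2 h was lost without dCBP-30 replicate 1 (0.90) or 3 (0.97) or DMSO replicate 2 (0.80), and its decrease at 24 h was not called with T>C reads scaled by their own total (-0.65). MRPL41, a mitochondria-specific large subunit protein, had 10.1, 9.57 and 9.07 against 4.55, 7.4 and 6.13 T>C RPM at 2 h without passing the test (adjusted p = 0.16) and fell at 24 h by 1.13 (adjusted p = 0.0012), a call lost under both other scalings.

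**Figure D3:**
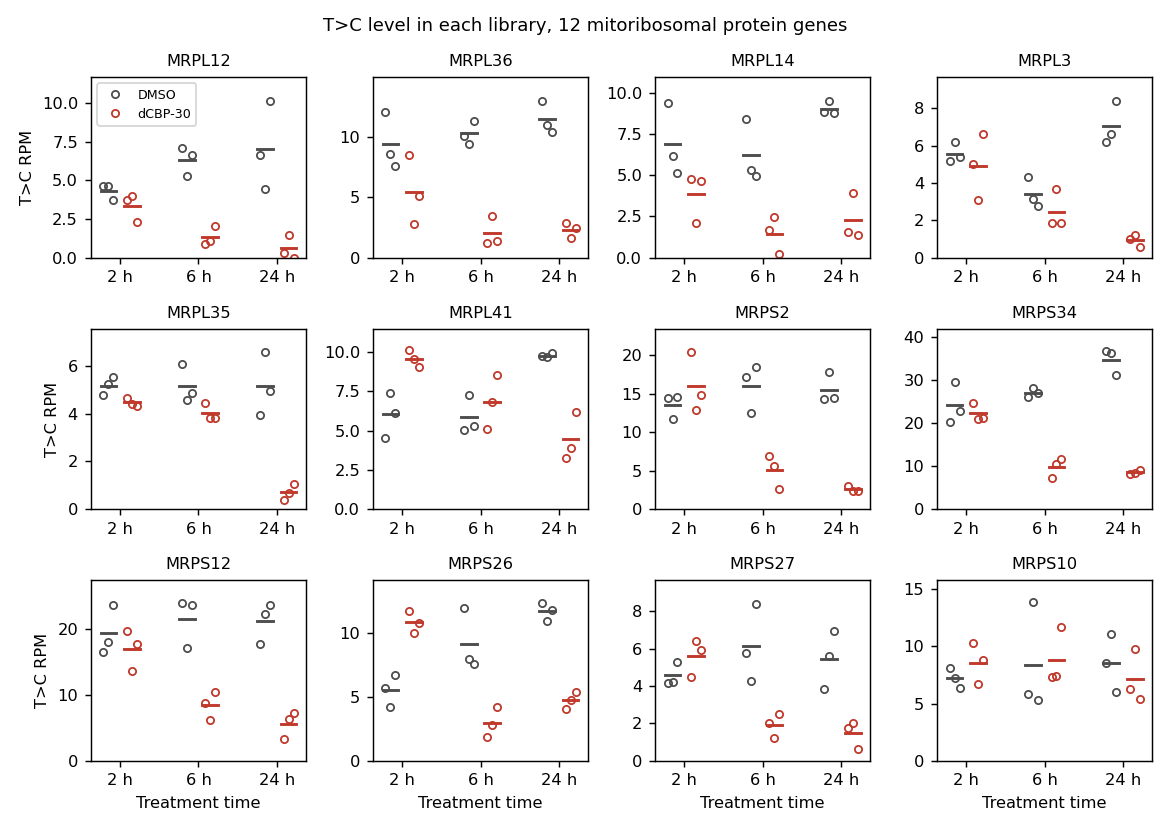
T>C level in RPM (linear axes from 0) of 12 genes in each library at 2, 6 and 24 h, with points for single libraries and bars for the mean of 3. MRPL36, MRPS2 and MRPS34 are low at 6 and 24 h, MRPL3 and MRPL35 reach their low level at 24 h, MRPS26 is above DMSO at 2 h, and MRPS10 overlaps DMSO at all 3 times.

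Genes that passed no test with TMM scaling were also members of both subunits. T>C reads of 23 genes passed at neither 6 nor 24 h, a count given without a share over all genes. At 24 h 10 genes passed in neither kind of read (13.7%, against 28.2% of all genes): MRPL28, MRPL33, MRPL42, MRPL44, MRPS10, MRPS14, MRPS21, MRPS22, MRPS28 and MRPS9. Without TMM factors 5 of these 10 passed as higher in total reads at 24 h, namely MRPL28 (0.64), MRPL42 (0.32), MRPL44 (0.64), MRPS10 (0.33) and MRPS9 (0.62), and 49.5% of all genes did. MRPS10 (uS10m) had 6.3, 9.79 and 5.42 T>C RPM against 8.55, 11.1 and 6.02 at 24 h, and 63.0, 71.6 and 65.4 total RPM against 64.5, 77.7 and 87.4, with overlap in both. MRPL44, which has an RNase III fold, had 6.3, 3.13 and 5.9 T>C RPM against 2.72, 3.76 and 5.51 (log2 fold change 0.36, SE 0.345). It passed as higher with T>C reads scaled by their own total (1.00) or without TMM factors (0.88). MRPS9 (uS9m) had 3.18, 1.65 and 1.29 against 1.88, 2.15 and 1.96 T>C RPM (0.03, SE 0.542), and MRPS22, another known disease gene, had -0.63 with an SE of 0.460. Counts limit such genes, and a missed threshold does not show that they held their level. MRPL52 had an estimate of -2.89 with an SE of 1.223 (adjusted p = 0.054) and MRPL50 one of -2.24 (SE 0.988, adjusted p = 0.064).

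New and total RNA did not always move together. At 24 h T>C and total reads both fell for 45 genes (61.6%, against 27.3% of all genes). T>C reads alone fell for 3 (4.11% against 9.51%), MRPL10, MRPL41 and MRPS27, and total reads alone for 13 (17.8% against 6.7%), among them MRPL58, MRPS18C and MRPL38. The split moved with the scaling, and without TMM factors both fell for 17 genes (14.8% of all genes), T>C reads alone for 5 (6.84%) and total reads alone for 11 (4.45%). MRPL58 (ICT1), which frees stalled mitochondrial ribosomes, fell in total reads from 40.3 ± 5.77 to 23.4 ± 2.21 RPM (adjusted p = 0.0012), with T>C levels of 1.97, 3.63 and 2.25 RPM against 4.02, 3.46 and 4.42. Its total call was lost without TMM factors (-0.26). MRPS18C, the S18 homologue of the small subunit, fell in total reads from 19.5 ± 4.84 to 9.93 ± 1.22 RPM (adjusted p = 0.011), a call also lost without TMM factors (-0.44). MRPS18A and MRPS30, both of the large subunit by position, fell in both kinds of read at 24 h, with T>C log2 fold changes of -1.29 and -1.04. Both T>C calls were lost under both other scalings, that of MRPS18A also without DMSO 24 h replicate 1 (-1.11), and that of MRPS30 without dCBP-30 24 h replicate 1 or 2 (-0.83 each). Without TMM factors the total calls of MRPS18A (-0.24) and MRPS30 (-0.05) were lost too. MRPL38 was 1 of 2 genes, with MRPL22, whose T>C reads fell at 6 h (by 1.38, adjusted p = 0.011) and passed no test at 24 h (-0.38). Its call at 6 h was lost under both other scalings and without dCBP-30 6 h replicate 2 (-1.0). Nearly all of the counted region of MRPL38 is also exon of another gene on the same strand.

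Total reads rose at 24 h for 2 genes. MRPL43 had 75.1, 81.1 and 76.2 RPM against 58.0, 60.7 and 58.4 (rose by 0.39, SE 0.121, adjusted p = 0.0079), with no overlap, while its T>C levels of 4.49, 2.53 and 5.1 RPM against 6.54, 4.11 and 5.29 overlapped. MRPL53 had 126, 124 and 160 RPM against 86.3, 102 and 115 (rose by 0.43, adjusted p = 0.0089), and all of its counted region is also exon of CCDC142 on the same strand. For 63 of the 73 genes (86.3%) the estimate was more negative in T>C than in total reads, as it was for 87.8% of all genes tested in both. Across the 73 genes the Spearman correlation of the 2 estimates was 0.66 at 24 h and 0.48 at 6 h, a description over genes that share libraries and, for each gene, reads, since T>C reads are part of the total.

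**Figure D4:**
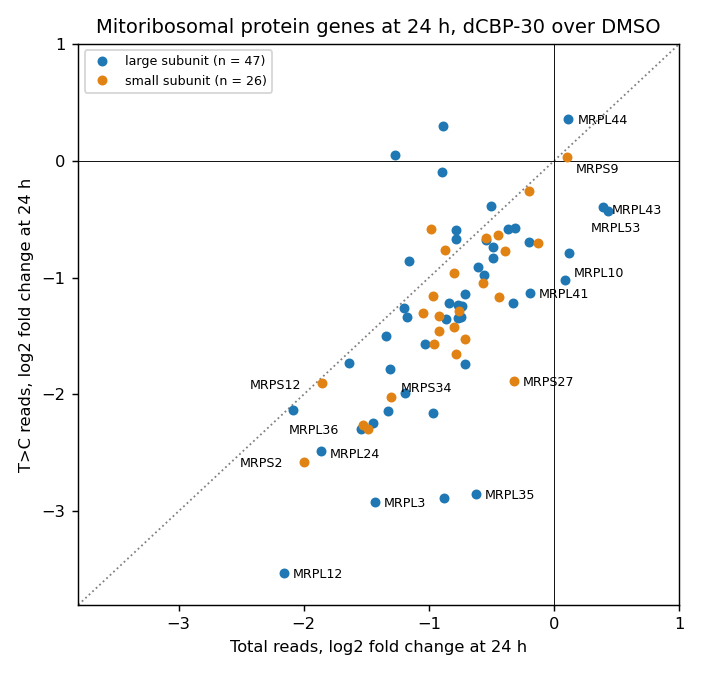
log2 fold change at 24 h in T>C reads (vertical) against total reads (horizontal) for the 73 genes, with TMM scaling. The dotted line marks equal change. MRPL12 lies lowest at -3.52 in T>C and -2.16 in total reads, 63 genes have the more negative estimate in T>C reads (86.3%, against 87.8% of all genes), and MRPL43 and MRPL53 lie right of 0.

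Time points were then compared in the same fit. From 2 to 6 h the T>C change became more negative for 12 of the 73 genes (7.32% of all genes), 5 large and 7 small: MRPL17, MRPL22, MRPL34, MRPL36, MRPL4, MRPS12, MRPS2, MRPS25, MRPS26, MRPS27, MRPS34 and MRPS5. From 6 to 24 h it became more negative for 5 (6.85%, below the 9.10% of all genes), namely MRPL27, MRPL3, MRPL35, MRPL41 and MRPS16. By edgeR the change became less negative for none of the 73 genes at either step, also at an unadjusted p under 0.05. Both differences rest on the same 6 h libraries. T>C reads of 21 genes fell at both 6 and 24 h and those of 27 at 24 h alone, of which the difference between the times passed the test only for the 5 named. The counts of 21 and 27 are given without a share over all genes, so they do not show a trait of this group.

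The share of T>C reads under DMSO rises with how much of a gene's RNA was made in the labelling hour and with how often a new read shows a conversion. Its median over the 73 genes was 6.54%, and 9.93% over the 9393 genes with at least 500 DMSO reads. By subunit the medians were 6.21% (large) and 6.67% (small). The highest shares were 19.9% ± 10.5 in MRPL50, 19.8% ± 2.73 in MRPL17, 19.5% ± 2.24 in MRPL10 and 19.5% ± 4.18 in MRPL44 (SD, n = 9), and these neighbours did not differ beyond their spread. The lowest was 1.95% ± 0.905 in MRPS15. The share goes with how many T a read covers, with a Spearman correlation of 0.5 over the 73 genes. It goes more closely with the percentage of covered T that were converted (0.94), a value drawn from the same reads. The share showed little relation to the total change at 24 h (0.07). Without 4sU the median share was 0.608%, but it was 12.5% in MRPS7, 6.78% in MRPL17, 2.5% in MRPS12 and 1.05% in MRPL11, and in these 4 genes the share under DMSO was less than 3 times that value. The cause was not tested. For MRPS7, with 17.9% under DMSO, the T>C log2 fold change of -0.76 at 24 h is no measure of new RNA alone.

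Other genes of the same pathway were then counted by list, with TMM scaling, where 21.2% (6 h) and 36.9% (24 h) of all genes were called lower in T>C reads. All 5 mitoribosome proteins that carry other symbols, DAP3, PTCD3, CHCHD1, AURKAIP1 and GADD45GIP1, fell in both kinds of read at 24 h, with T>C log2 fold changes from -0.97 (AURKAIP1) to -1.53 (CHCHD1), and PTCD3 and GADD45GIP1 fell at 6 h. Of 12 translation factors tested, 6 fell in T>C reads at 24 h, including the elongation factors TUFM (-1.42) and GFM1 (-1.32). MTFMT, which formylates the initiator methionine, rose at 2 h (1.04) and 24 h (0.73), and GUF1 rose at 2 h (1.21). Of 23 assembly and rRNA modification factors, 4 fell at 6 h, a smaller share than over all genes, 2 rose (ERAL1 and RPUSD3) and 12 fell at 24 h, among them the GTPase NOA1 (-2.08) and the rRNA methyltransferase MRM2 (-2.0). Of 10 genes of mitochondrial transcription and RNA stability, 5 fell in T>C reads at 24 h (POLRMT, TFAM, TFB2M, SLIRP and PNPT1), and 8 fell and 1 rose in total reads. In total reads at 24 h 4 of 14 translation factors fell and 1 rose, and 10 of 24 assembly factors fell and 2 rose. Of all genes 29.7% fell and 28.8% rose in total reads at that time. The share of translation factors that fell thus lay near the background, and the share that rose lay below it. Their median in total reads was -0.19, against 0.06 over all genes. With T>C reads scaled by their own total, 2 of the 5 other mitoribosome proteins (PTCD3 and GADD45GIP1), 1 translation factor (TUFM), 5 assembly factors and 1 gene of the transcription list (SLIRP) still fell at 24 h, when 18.6% of all genes did, and the medians of these lists lay between -0.72 and -0.27.

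Of 10 nuclear regulators known for genes of mitochondrial proteins, T>C reads of 1 fell by 2 h, of 4 by 6 h and of 7 by 24 h. Of all genes 8.33%, 21.2% and 36.9% fell, so that the count at 2 h lies near the background. In total reads 5 fell and 1 rose at 6 h, where 21.4% of all genes fell and 18.8% rose. At 24 h 5 fell and 1 rose as well, against 29.7% and 28.8% of all genes. MYC was the gene that fell in T>C reads at 2 h, at 1.56 ± 1.36 RPM under dCBP-30 and 122 ± 4.95 under DMSO. The coactivators PPRC1 and PPARGC1B and the nuclear receptor ESRRA fell by 2.53, 4.06 and 2.32 at 6 h and stayed called at 24 h, when YY1 (-0.74), GABPB1 (-1.64) and PPARGC1A (-2.21) passed too. YY1 and PPARGC1A lost the call under both other scalings. GABPA and NRF1 passed no test in T>C reads, while NRF1 passed as higher in total reads at 6 h (0.575, adjusted p = 0.0043, edgeR). MAX passed as higher at 24 h in total reads (0.44, adjusted p = 0.0019) and, in T>C reads, only when these were scaled by their own total. By promoter letters, the T>C median at 24 h was -1.03 for the 28 genes with the GABP letters and -1.38 for the promoters without, -1.32 and -1.25 for the YY1 letters, -1.50 and -1.26 for the NRF1 letters, and -1.16 and -1.29 for the E-box. At 6 h it was -0.43 and -0.73 for the GABP letters and -0.91 and -0.57 for each of the others. They are descriptions with no test.

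The counted 3′ regions limit some genes. Of the 73 genes, 11 share bases with an exon of another gene on the same strand (6 large and 5 small), and 14 have an exon on the opposite strand over the counted region, where strand use in counting is not given in the sources used here. Over the 62 genes without such overlap on the same strand, 41 fell in T>C reads at 24 h with TMM scaling (66.1%, against 36.9% of all genes). Their median was -1.25, against -0.68 over all genes. With T>C reads scaled by their own total 18 of the 62 fell (29.0% against 18.6%), and without TMM factors 19 (30.6% against 21.6%).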

How the data were processed

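The authors made SLAM-seq libraries with a 3′ end kit, which were trimmed with Trim Galore and counted with Slamdunk on 3′ UTRs of hg38. The paper reports that labelled Drosophila RNA was added to the samples as an external spike-in ahead of the conversion step. No scaling used here draws on that spike-in. The authors deposited, per library and transcript, counts of all reads and of T>C reads, neither normalised. Transcripts were matched to GENCODE 44, where 91.4% of 97466 rows had a match. Each gene was represented by the transcript with the most reads.

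Groups came from the labels. Counts were fitted with edgeR 4.0.16 (quasi-likelihood, robust; R 4.3.3) over the 18 labelled libraries with 1 mean per group, after filterByExpr (minimum count 10), with Benjamini-Hochberg adjustment over all genes tested and a call at an adjusted p under 0.05. Library size was total reads times the TMM factor for both measures. RPM uses the same sizes. The script was tested on simulated data. Alternatives were DESeq2 1.42.0, T>C-read scaling, no TMM, no filter, reads summed over transcripts, subtraction of the share without 4sU, a replicate block, a fit per time point and leaving out each library. Total counts of 12440700 to 18729086 per library limit precision for genes with few T>C reads. Members and lists were chosen with earlier results of these data known. Genes named were 16 fixed by role and those with the most extreme T>C estimates and at least 20 T>C reads in the mean, and others named were chosen after their values were seen. Promoters came from RefSeq (GRCh38.p14). Values of the 5 symbols below 500 DMSO reads were left out.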

Additional observations from a re-analysis of the deposited data

Results flagged for a closer look

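The change in T>C reads under dCBP-30 differed between times, by a test of the difference in the same edgeR fit, for 12 genes between 2 and 6 h and for 5 between 6 and 24 h. These are 16.4% and 6.85% of the 73 genes, and the change became more negative for 7.32% and 9.10% of all genes. The later count thus lies below the share of all genes. With T>C reads scaled by their own total the shares were 5.48% against 3.6% and 2.74% against 5.34%.

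From 2 to 6 h the log2 fold change moved by -2.58 in MRPS26, -1.99 in MRPS25, -1.98 in MRPS27, -1.90 in MRPS2, -1.54 in MRPL36, -1.34 in MRPS34 and -1.16 in MRPS12. MRPS26 crossed from above to below DMSO. The differences of MRPL36, MRPS12 and MRPS27 were no longer called with T>C reads scaled by their own total (-1.22, -0.85 and -1.68).

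From 6 to 24 h it moved by -2.49 in MRPL35, -2.45 in MRPL3, -1.35 in MRPL41 and -1.08 in MRPS16. Those of MRPL41 and MRPS16 were no longer called with T>C reads scaled by their own total (-1.01 and -0.73). T>C reads of the 73 genes carried 1.37 ± 0.0208 conversions under dCBP-30 and 2.20 ± 0.0462 under DMSO at 24 h (n = 3), and the part of this in the later differences was not tested.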

How the results depend on the processing

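Of the counts and subunit medians, 460 values under an alternative stayed within the limit set (1.5 times for a count, 1 SD for a median) and 64 moved beyond it. The small subunit median at 2 h, near 0, fell below 0 without dCBP-30 2 h replicate 3 (-0.02) or DMSO 2 h replicate 3 (-0.016), and no other median changed sign. With T>C reads scaled by their own total, T>C reads of 12 genes fell and 1 rose at 6 h, 20 fell and 1 rose at 24 h, the change differed between 2 and 6 h for 4 and between 6 and 24 h for 2, and the medians of the large and small subunits were -0.26 and -0.21 at 6 h and -0.56 and -0.64 at 24 h. Without TMM factors these were 12, 1, 22, 1, 7 and 2, with medians of -0.26, -0.21, -0.70 and -0.78. At 2 h T>C reads of 1 gene fell, and total reads rose for 1 gene at 2 h, fell for 8 and rose for 15 at 6 h, and fell for 28 and rose for 9 at 24 h. These shifts follow from the scaling itself. With reads summed over transcripts T>C reads of 0 genes fell and 0 rose at 2 h and 15 fell at 6 h, the change differed for 3 genes between 6 and 24 h, and total reads rose for 1 at 24 h. Counting only changes above 2-fold left 0 genes lower in T>C reads at 2 h and 2 and 22 lower in total reads at 6 and 24 h. DESeq2 called 1 lower in total reads at 2 h and 3 higher at 6 h, and fitting without a filter called 1 higher at 6 h. Subtracting the share without 4sU left 7 genes whose change differed between 2 and 6 h and a small subunit median of -0.61 at 6 h. That median was -0.64 with MRPS18A and MRPS30 in the large subunit and -0.48 without genes that overlap another, which left 1 gene lower in T>C reads at 2 h. Apart from the scalings the cause of these shifts was not tested.

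Leaving out 1 library at a time gave 1 to 2 genes lower and 0 to 1 higher in T>C reads at 2 h, 14 to 24 lower at 6 h and 37 to 49 at 24 h. For total reads it gave 17 to 33 lower and 0 to 4 higher at 6 h, and 55 to 60 lower and 1 to 2 higher at 24 h. All counts from fits without 1 library are given without the share of all genes in those fits. The change differed for 6 to 13 genes between 2 and 6 h and for 2 to 7 between 6 and 24 h. The first fell to 7 without DMSO 2 h replicate 3 and to 6 without DMSO 6 h replicate 1 or 3, and the second to 2 without dCBP-30 24 h replicate 1 and to 3 without DMSO 24 h replicate 2 or 3. Without dCBP-30 6 h replicate 3, total reads of 4 genes rose at 6 h, and without dCBP-30 24 h replicate 3 or DMSO 24 h replicate 1 total reads of 1 rose at 24 h. Medians of the large subunit ran from 0.008 to 0.2 at 2 h, from -0.64 to -0.48 at 6 h and from -1.24 to -1.14 at 24 h, and those of the small subunit from -0.02 to 0.24, from -0.67 to -0.46 and from -1.41 to -1.16. Of the T>C values of named genes, differences between times included, 2294 kept their call, 81 lost it and 6 gained one. Calls in total reads are not in this tally, and without TMM factors several named genes, such as MRPS10, gained one there.

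Same-numbered samples showed no shared deviation in T>C reads (correlations from -0.06 to 0.024). These values cannot show whether same-numbered samples were handled together. With the replicate number as a block, 2, 22 and 47 genes were lower in T>C reads at 2, 6 and 24 h and 0, 26 and 58 in total reads, and no count of calls moved by more than 1.5 times. Depth limits genes such as MRPL52 and MRPL50, with 0 T>C reads in 1 dCBP-30 library at 24 h.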
